A study of Mus musculus with 8 samples.

Results

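Retained-intron isoforms are transcripts that keep, as part of an exon, a stretch of sequence that other transcripts of the same gene remove as an intron. The members were all isoforms whose annotated biotype in the deposited table was retained intron. They were 18001 of 122968 isoforms (14.6%) and came from 7797 of 49585 genes. Protein-coding genes held 17682 of the members. A single member was found in 3414 genes and 2 or more in 4383 genes, and the most, 20, were in Gas5, a noncoding gene that carries small nucleolar RNAs (snoRNAs) in its introns. Of the members, 16352 had reads in at least 1 library and 1649 had none.

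An intron is cut out by the spliceosome, which recognizes a GT at its start (the donor) and an AG at its end (the acceptor) and leaves the excised intron behind as a lariat. The helicase DHX15 is the mammalian counterpart of yeast Prp43, which takes apart the spliceosome after the cut and also acts in ribosome assembly. Transcripts that keep an intron often stay in the nucleus or are degraded, and some are used to tune how much of a protein is made, as in the kinases and SR proteins that control splicing itself. Introns of host genes also give rise to snoRNAs and Cajal-body RNAs, and a few of these annotated transcripts hold the sequence of one.

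RNA was compared between LEC, a line of mouse hepatic endothelial cells from the strain C57BL/6 that was immortalized with SV40, and siL-DHX15-LEC, the same line infected with a lentiviral shRNA against DHX15 under a Tet-On promoter that doxycycline switches on. Each condition had 4 libraries, all from polyadenylated RNA and stranded. According to the sample labels the wild-type LEC had no treatment. Since none of the 8 libraries carries a control vector with doxycycline, silencing, vector and drug cannot be told apart here. The libraries of a condition all come from the same line and are described in the study as biologically independent, so p-values measure the spread between samples of that line.

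Introns spanned by some of the members described below are shown first. An intron is called spanned where an exon of the member covers the whole of an intron that another isoform of the gene removes. Of the 10398 members abundant enough to test, 3934 span an intron, while 6349 cover only part of one. Several of the largest changes below are of the second kind, so they are not whole introns kept. Sequences were read from GRCm38, 5′ to 3′ on the strand of the gene. The first set shows whole introns short enough to print, with the first 6 and the last 3 bases in capitals. The intron of Dda1-009 (chr8:71472118-71472194, plus strand, 77 bases) is intron 2 of 4 of its coding isoform, that of Ndufaf3-002 (chr9:108566752-108566850, minus strand, 99 bases) is intron 1 of 4, and both lie between coding exons. Both members took a larger share of their gene in siL-DHX15-LEC. The intron of Hes6-005 (chr1:91412483-91412720, minus strand, 238 bases) is intron 3 of 3, also between coding exons, and its member took a smaller share.
Dda1-009: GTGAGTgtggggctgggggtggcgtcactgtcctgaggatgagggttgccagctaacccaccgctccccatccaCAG
Ndufaf3-002: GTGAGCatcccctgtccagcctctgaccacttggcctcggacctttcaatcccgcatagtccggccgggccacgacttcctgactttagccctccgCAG
Hes6-005: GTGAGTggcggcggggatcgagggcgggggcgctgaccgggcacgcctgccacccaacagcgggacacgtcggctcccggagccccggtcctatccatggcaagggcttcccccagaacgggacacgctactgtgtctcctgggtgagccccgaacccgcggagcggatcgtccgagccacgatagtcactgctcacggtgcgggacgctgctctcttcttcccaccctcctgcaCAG

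The second set shows only the ends of introns too long to print, 1 from each of 4 members whose share fell, with the donor GT and the acceptor AG in capitals. Each donor is given with 3 bases of exon and 6 of intron, and each acceptor with 20 bases of intron and 3 of exon. Gas5-014 and Luc7l2-008 span 1 intron each, while Abcc5-003 spans 2, of which the shorter is shown, and Clk2-004 spans 4 that overlap in part, of which the one that most coding isoforms remove is shown. The intron of Gas5-014 (chr1:161036245-161036548, plus strand, 304 bases), that of Luc7l2-008 (chr6:38557381-38557851, plus strand, 471 bases) and one of Abcc5-003 (chr16:20401072-20402259, minus strand, 1188 bases) are shown. No coding isoform removes the first or the second, and the third is intron 6 of 6 of its host isoform, outside the coding part. The fourth, in Clk2-004 (chr3:89169703-89170048, plus strand, 346 bases), is intron 4 of 12 and lies between coding exons. It has an unusual donor with a score of 0.668 on a log2 scale built from the spanned introns, where the median over tested members was 7.67.
Gas5-014 donor: aatGTaagc
Gas5-014 acceptor: taactatttgtttgttgtAGgtg
Luc7l2-008 donor: caaGTaagc
Luc7l2-008 acceptor: gattatatttgtaatcctAGcat
Abcc5-003 donor: cagGTaagg
Abcc5-003 acceptor: taatcttctttcttcagcAGcaa
Clk2-004 donor: gatGTacaa
Clk2-004 acceptor: cctactttctttcgtttcAGatg

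The reads recovered from the deposited values were 118830467 to 152045693 in wild-type LEC and 77335734 to 149258495 in siL-DHX15-LEC, the lowest in siL-DHX15-LEC replicate 1. That library also detected the fewest members, 13273 against 14119 to 14544 in the others. The wild-type libraries were read on lanes 1 and 4 of a flow cell and the silenced ones on lanes 2 and 5, and the lane cannot be told apart from the condition. Of 16 endothelial marker genes, 9 had at most 10 normalized counts in every library and Emcn had none. Cdh5, which encodes VE-cadherin, had at most 4.73, and Kdr, which encodes a VEGF receptor, had 682 to 815. The mesothelial and fibroblast genes summed to 77852 to 80296 normalized counts in wild-type LEC and 66804 to 70577 in siL-DHX15-LEC, with Msln at 21517 to 23993. The hepatocyte genes summed to 12497 to 12993 and 9400 to 10288, with Alb at 522 to 658 in wild-type LEC and at most 1.89 in siL-DHX15-LEC. Of these 3 lists, 5 retained-intron isoforms were abundant enough to test, 1 of hepatocyte and 4 of mesothelial and fibroblast genes. Of 9 sinusoidal and lymphatic endothelial genes, 4 had at most 10 normalized counts in every library, among them Lyve1 (at most 2.6). Pdpn had 6892 to 7904. The study reports CD31, eNOS, LYVE-1 and podoplanin in LEC. Whether the transcripts of these lists come from the line itself or from other cells was not tested.

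Retained-intron isoforms made up a small and slightly smaller part of the RNA after silencing. In the wild-type LEC replicates 1 to 4 they held 1.69, 1.82, 1.77 and 1.73% of the normalized counts, and in siL-DHX15-LEC 1.67, 1.68, 1.68 and 1.70%. The mean fell from 1.75 to 1.68%, a difference of -0.0696 percentage points, but wild-type replicate 1 lay among the silenced libraries, so the groups overlapped. Isoforms annotated as targets of nonsense-mediated decay, the surveillance that degrades transcripts with an early stop codon, moved the other way, from 1.96, 1.98, 2.03 and 2.03% to 2.10, 2.08, 2.08 and 2.05%, without overlap. The log2 ratio of retained-intron to nonsense-mediated-decay counts was between -0.231 and -0.121 in wild-type LEC and between -0.327 and -0.273 in siL-DHX15-LEC, again without overlap. Against processed transcripts, which have no annotated open reading frame, the log2 ratio was between 0.527 and 0.598 in wild-type LEC and between 0.457 and 0.494 in siL-DHX15-LEC. The summed normalized counts of the retained-intron isoforms were 2141920 to 2198690 in wild-type LEC and 2186860 to 2196670 in siL-DHX15-LEC. The silenced range thus lay inside the wild-type range. The totals of all isoforms were higher after silencing, at 129091000 to 131310000 against 120698000 to 126931000, so the smaller percent was not a smaller sum. In bulk RNA, fewer cells that make a transcript and less of it per cell cannot be told apart.

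**Figure D1:**
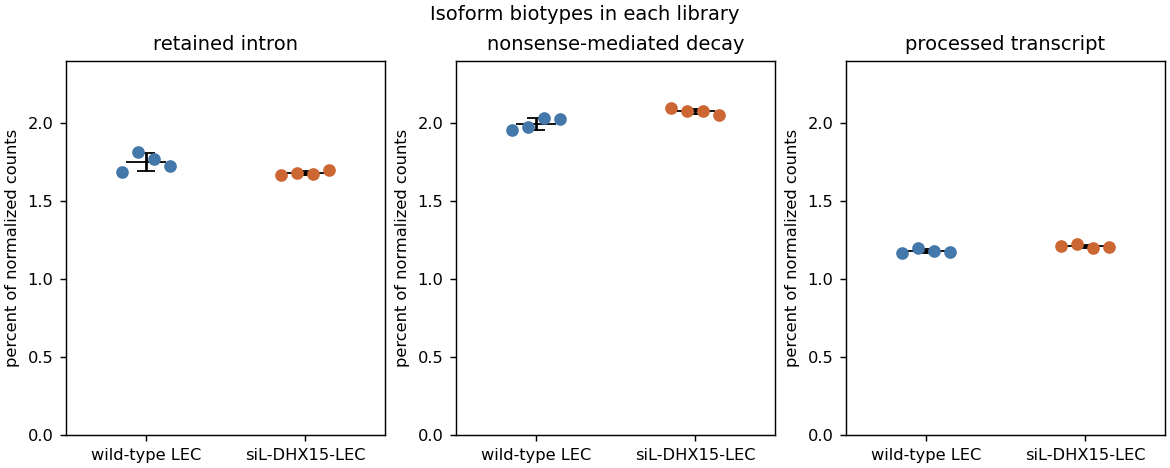
Percent of all normalized counts in each library (vertical axes) held by isoforms of the retained-intron, nonsense-mediated-decay and processed-transcript biotypes, with points for the 4 wild-type LEC and 4 siL-DHX15-LEC libraries and lines for the means. Retained-intron isoforms fell from a mean of 1.75 to 1.68% with wild-type replicate 1 (1.69%) among the silenced libraries, while nonsense-mediated-decay isoforms rose without overlap.

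The level of each isoform was tested with limma on log2(normalized count + 1) over the 50198 isoforms with a mean of at least 10, and 10398 retained-intron isoforms were among them. Of these, 177 were higher and 160 lower in siL-DHX15-LEC at an adjusted p of 0.05, which is 3.24% of the members against 10.4% of all isoforms tested (6.61% higher and 3.83% lower). The groups did not overlap for 411 members that were higher and 641 that were lower (10.1% of the members, against 18.1% of all isoforms tested). The median log2 change of the members was -0.10, against -0.02 over all isoforms tested, and 38.5% of the members had a positive change. At the stricter threshold of 0.001 limma called 0 members, with 1481 at an unadjusted p under 0.05, edgeR called 0 and DESeq2 156. Rescaling every library to the same total changed the split of the calls from 52.5% higher to 29.6% higher, with 107 higher and 254 lower.

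The members were also low in level, with a median of 47.0 normalized counts against 123 over all isoforms tested, and the share that passed rose with abundance. Between a mean of 10 and 50 counts, 18 members were higher and 21 lower of 5427. Their median log2 change was -0.16, against -0.07 for the other biotypes in that range. From 200 to 1000 counts, 68 were higher and 50 lower of 1381, with a median of -0.03 against 0.01 for the other biotypes. Among the 318 members with a mean of 1000 or more, 45 were higher and 24 lower (21.7%, against 25.5% of the other biotypes in that range). There the median log2 change was 0.06, against 0.03 for the other biotypes. Nonsense-mediated-decay isoforms had 203 higher and 46 lower of 3238 with a median of 0.08, and processed transcripts 192 higher and 81 lower of 4868 with a median of 0.01. The difference between biotypes was not tested, since isoforms of 1 gene are not independent. By library, the median deviation of the members from their own mean was 0.00, 0.09, 0.11 and 0.07 in wild-type LEC on the log2 scale and -0.04, -0.02, 0.00 and 0.00 in siL-DHX15-LEC, so wild-type replicate 1 lay with the silenced libraries here too. The count of calls moved by more than 1.5 times when any library but wild-type replicate 1 or silenced replicate 4 was left out, and was then 146 to 223.

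**Figure D2:**
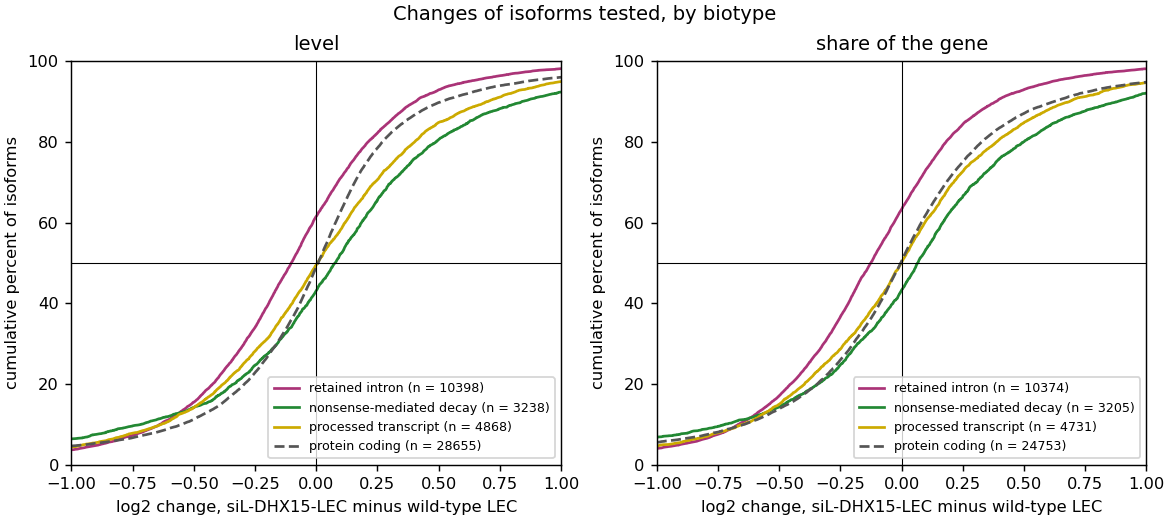
Cumulative percent of isoforms (vertical axis) against the log2 change of level, left, and of share of the gene, right, in siL-DHX15-LEC over wild-type LEC, with a line for each biotype. At a cumulative percent of 50 the line of the retained-intron isoforms lies to the left of the others, with medians of -0.10 for level and -0.13 for share, and that of the nonsense-mediated-decay isoforms lies to the right with 0.08 and 0.07.

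The 10 largest rises in level came from genes of varied function. They were ranked among members that passed with a mean of at least 50 counts and no overlap of the groups. Stk39-002 belongs to Stk39, a kinase that controls ion cotransporters (chromosome 2, 68262791 to 68471940). It had 439, 733, 710 and 531 normalized counts in wild-type LEC and 1460, 1487, 1307 and 1359 in siL-DHX15-LEC. No silenced library fell below 1307 and no wild-type library passed 733, a gap that the choice of members required. The log2 change was 1.25 (SE 0.158, limma adjusted p = 0.00277). Gatad2b-005, of a subunit of the NuRD chromatin complex, had 97.9, 73.8, 65.8 and 64.0 against 190, 197, 171 and 209 (log2 change 1.35, limma adjusted p = 0.00217). Tia1-009, of an RNA-binding protein of stress granules that also acts in splicing, rose from 58.7 ± 17.2 to 144 ± 12 (SD, n = 4 each, limma adjusted p = 0.0108), with wild-type replicate 1 lowest at 33.0. Trak1-002, of an adaptor that moves mitochondria along microtubules, rose from 108 ± 28.9 to 267 ± 33.4 (SD, n = 4 each, limma adjusted p = 0.00541). Aldh1l2-003, of a mitochondrial enzyme of folate metabolism, had 68.9 to 131 in wild-type LEC and 237 to 470 in siL-DHX15-LEC, and its gene total rose as well by 0.56 on the log2 scale. Ebp-003, of a sterol isomerase in cholesterol synthesis, rose from 25.9 ± 9.54 to 80.3 ± 17.8 (SD, n = 4 each, limma adjusted p = 0.0145), while its gene total did not pass. These calls, and that of Dpm1-006, stood with any 1 library left out. Each of these members covers part of an intron and spans none whole.

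The other rises among the 10 largest rested on more of the libraries. Aup1-007, of a protein of lipid droplets and the endoplasmic reticulum, had 52.5, 77, 8.35 and 57.1 normalized counts in wild-type LEC and 307, 174, 153 and 182 in siL-DHX15-LEC (log2 change 2.35, limma adjusted p = 0.0448). Wild-type replicate 3 was low and silenced replicate 1 high. The call was lost without any of 6 libraries, with an adjusted p of up to 0.112 without silenced replicate 1. Ndrg1-002, of a gene induced by stress, rose by 1.35 (limma adjusted p = 0.0215), as its gene total did, and lost the call without any of 4 libraries. Stard5-005, of a sterol-binding protein, rose by 1.27 (limma adjusted p = 0.0225) and lost it without any of 3.

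The 10 largest falls, ranked under the same conditions, also came from genes of varied function. Nup188-005, of a nuclear pore protein (chromosome 2, 30286429 to 30326686), had 106, 70.7, 76.2 and 123 normalized counts in wild-type LEC and 23.8, 16.8, 38.6 and 17.0 in siL-DHX15-LEC. All silenced libraries were below the lowest wild-type library, as the choice of members required. Its level fell by 1.97 on the log2 scale (SE 0.311, limma adjusted p = 0.00634), while its gene total was higher by 0.20. Fmnl1-006, of a formin that builds actin filaments, had 122, 87.3, 129 and 136 against 49.2, 45.0, 43.9 and 48.2 (log2 change -1.31, limma adjusted p = 0.00301). Asic3-003, of an acid-sensing ion channel, fell from 131 ± 17.1 to 54.7 ± 8.82 (SD, n = 4 each, limma adjusted p = 0.00329), and its gene total fell by 1.14. Ddx3x-003, of a DEAD-box RNA helicase, had 162 to 227 in wild-type LEC and 45.4 to 124 in siL-DHX15-LEC. Afdn-016, of the junction protein afadin, had 56.7 to 87.7 and 23.8 to 41.6, and Kdm2b-017, of a histone demethylase, had 80.4 to 139 and 36.9 to 54.4. Haus3-003, of the augmin complex that branches spindle microtubules, fell from 158 ± 13.4 to 78.1 ± 22.7 (SD, n = 4 each, limma adjusted p = 0.0151). These 7 calls and that of Abcc5-006 stood with any 1 library left out. That of Ctsa-005, of a lysosomal protease, did not (176 ± 29.0 to 87.3 ± 27.5, SD, n = 4 each, limma adjusted p = 0.0244, and up to 0.0728 without wild-type replicate 4, 5 libraries in all). Nup188-005, Fmnl1-006, Afdn-016, Kdm2b-017 and Abcc5-006 cover part of an intron and span none whole.

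Many changes in level went with a change of the whole gene, and each member was also taken as its share of its gene. Gene totals passed the test for 33.2% of all genes tested. Of the 177 members with a higher level, 109 were in genes whose total was higher, 58 in genes that did not pass and 10 in genes that were lower. Of the 160 members with a lower level, 59 were in genes that were lower, 76 in genes that did not pass and 25 in genes that were higher. In the 2786 of 10398 members that were in genes whose total rose, the median log2 change of level was 0.01 and that of the share was -0.21. In the 1403 members of genes whose total fell, they were -0.27 and -0.01.

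**Figure D3:**
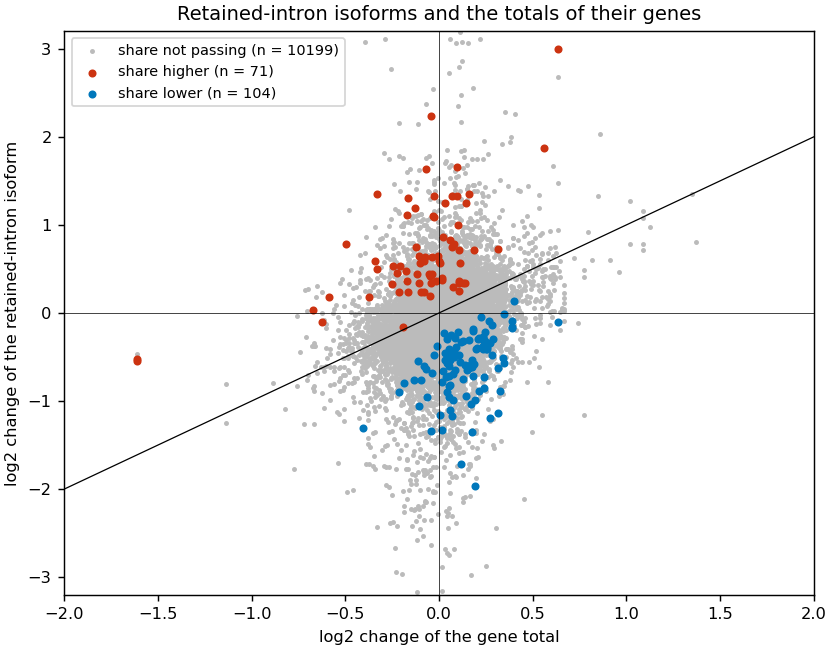
Log2 change of level of each of 10374 retained-intron isoforms (vertical axis) against that of its gene total (horizontal axis), siL-DHX15-LEC over wild-type LEC, with members whose share passed the test colored and 11 members beyond the axes left out. Members with a lower share lie below the diagonal, as the definition of a share implies. Of these 104, 54 were in genes whose total was higher, as were 2786 of the 10374 members.

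The share was tested with limma on the log2 ratio of the isoform to the rest of its gene, with 1 added to each. A member held a median of 0.754% of its gene (quartiles 0.275 and 2.48%), and 1505 members held at least 5%, 364 at least 20% and 69 at least 50%. Of 10374 members tested, 71 took a larger share in siL-DHX15-LEC and 104 a smaller one, 1.69% against 4.35% of all isoforms tested (2.19% higher and 2.16% lower). The groups did not overlap for 333 members with a larger and 817 with a smaller share (11.1%, against 13.5% of all isoforms tested). The median log2 change was -0.13, against -0.03 over all isoforms. A change of level and of share in the same direction was found for 53 members that were higher and 69 that were lower. Of the 71 larger shares, 22 were in genes whose total fell and 12 in genes whose total rose. Of the 104 smaller shares, 54 were in genes whose total rose and 4 in genes whose total fell. Of all 10374 members, 2786 and 1403 were in such genes. A share is taken against the rest of its gene, so these counts are partly built in. The count of 175 was 69 to 114 when any library but silenced replicate 4 was left out. By another test of isoform usage, diffSplice of limma, 95 were higher and 200 lower, and 37 of the 175 were among them.

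Larger shares passed in 2 complex I genes and in a ubiquitin ligase gene. Of the 89 members tested in oxidative phosphorylation genes, 2 shares were larger and 0 smaller (2.25%, against 1.69% of all members). Their median log2 change was -0.19, and of 14 shares at an unadjusted limma p under 0.05, 3 were larger. Dda1-009, of a subunit of DDB1-CUL4 ubiquitin ligases, held 9.5, 10.4, 8.51 and 9.59% of its gene in wild-type LEC and 14.3, 15.2, 15.5 and 15.1% in siL-DHX15-LEC. Every silenced library was above every wild-type library, which the choice of members by share also required. The log2 ratio rose by 0.76 (SE 0.0783, limma adjusted p = 0.00179) and the gene total did not pass. Ndufs1-005, of the core subunit of respiratory complex I (chromosome 1, 63156683 to 63176669), held 3.08, 3.44, 3.54 and 3.36% against 5.60, 5.57, 6.35 and 6.49%. Its level rose from 399 ± 10.8 to 727 ± 67.8 normalized counts (SD, n = 4 each, limma adjusted p = 0.001), while both main coding isoforms, Ndufs1-001 and Ndufs1-006, did not pass and kept most of the gene. Ndufs1-005 covers part of an intron and spans none whole. Ndufaf3-002, of a complex I assembly factor, went from 5.75, 5.65, 4.39 and 6.8% to 10.5, 9.72, 9.16 and 8.99% (log2 ratio 0.83, limma adjusted p = 0.0347, and up to 0.0871 without silenced replicate 2). Leaving out any of 7 libraries ended that call.

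Stk39-002 held 5.38, 9.01, 9.48 and 6.98% of its gene in wild-type LEC and 18.2, 18.4, 16.6 and 17.0% in siL-DHX15-LEC. The conditions did not overlap, which was a condition of its choice. Its log2 ratio rose by 1.38 (limma adjusted p = 0.00566), though diffSplice gave the opposite sign, -0.96 (adjusted p = 0.763). Anapc15-005, of a subunit of the anaphase-promoting complex, held 19.2 to 21.7% in wild-type LEC and 27.4 to 29.6% in siL-DHX15-LEC (limma adjusted p = 0.00384). Snx21-006, of a sorting nexin, went from 8.16 ± 0.39 to 13.3 ± 1.72% (SD, n = 4 each, limma adjusted p = 0.0129). These calls stood with any 1 library left out. Others did not. Fgd4-003, of an exchange factor for Cdc42, went from 48.7 ± 2.02 to 62.9 ± 5.14% (SD, n = 4 each, limma adjusted p = 0.0451) and lost the call without any of the 8 libraries. Jak3-003, of a cytokine receptor kinase, went from 16.3 ± 1.12 to 25.9 ± 3.55% (SD, n = 4 each, limma adjusted p = 0.0297) and lost it without any of 7. The shares of Ears2-003, of the mitochondrial glutamyl tRNA synthetase, and Klf3-002, of a Kruppel-like repressor, rose from 4.99 to 12.3% and from 6.73 to 12.2%, and each lost the call without any of 5 libraries.

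Smaller shares passed in a transcription factor, a transporter and 2 genes of splicing control. Hes6-005, of a bHLH repressor, held 14.2, 15.2, 11 and 10.4% of its gene in wild-type LEC and 6.08, 6.05, 6.56 and 5.01% in siL-DHX15-LEC. The highest silenced library was below the lowest wild-type library, as the choice of members required. The log2 ratio fell by 1.19 (SE 0.179, limma adjusted p = 0.00942). Abcc5-003, of a transporter of cyclic nucleotides, held 9.31, 8.83, 10.4 and 10.5% against 4.57, 4.75, 4.89 and 6.23% (log2 ratio -1.01, limma adjusted p = 0.00371), in a gene whose total rose by 0.32. Luc7l2-008, of a protein of the U1 snRNP that helps to select donors, held 5.95, 8.48, 8.05 and 7.76% against 3.94, 3.81, 4.25 and 4.28% (log2 ratio -0.93, limma adjusted p = 0.00486). All 3 members of Luc7l2 passed with a smaller share. Clk2-004, of a kinase of SR proteins, went from 6.93 ± 1.60 to 3.69 ± 0.368% (SD, n = 4 each, limma adjusted p = 0.0356) and lost the call without any of 7 libraries.

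In Dpm1 the shares of members moved apart. In Rgs3, where 1 member was tested, the share fell while the level did not pass. Dpm1 makes dolichol phosphate mannose, the sugar donor of N-glycosylation, and its total rose by 0.64 on the log2 scale. The level of Dpm1-004 rose from 405 ± 43.5 to 784 ± 97.9 normalized counts (SD, n = 4 each, limma adjusted p = 0.0025) and that of Dpm1-006 from 102 ± 19.6 to 287 ± 70.6 (SD, n = 4 each, limma adjusted p = 0.00345). Dpm1-008 had 4.12, 7.94, 8.35 and 19 in wild-type LEC and 61.1, 114, 72.0 and 67.2 in siL-DHX15-LEC. Its share rose by 2.4 in the log2 ratio (limma adjusted p = 0.0223, lost without any of 5 libraries). The shares of Dpm1-004 and Dpm1-006 did not pass (limma adjusted p = 0.0874 and 0.0897). Dpm1-009 did not pass for level (321 ± 43.3 against 297 ± 26.8, SD, n = 4 each), and its share fell from 19.7 ± 3.42 to 11.7 ± 1.40% (SD, n = 4 each, limma adjusted p = 0.0284, lost without any of 6 libraries). Rgs3-007, of a regulator of G-protein signaling, likewise had 193 to 214 counts in wild-type LEC and 171 to 209 in siL-DHX15-LEC, but held 52.4 to 62.7% and 36.0 to 47.8% of a gene whose total rose by 0.39 (limma adjusted p of the share 0.0359, lost without any of 7 libraries).

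**Figure D4:**
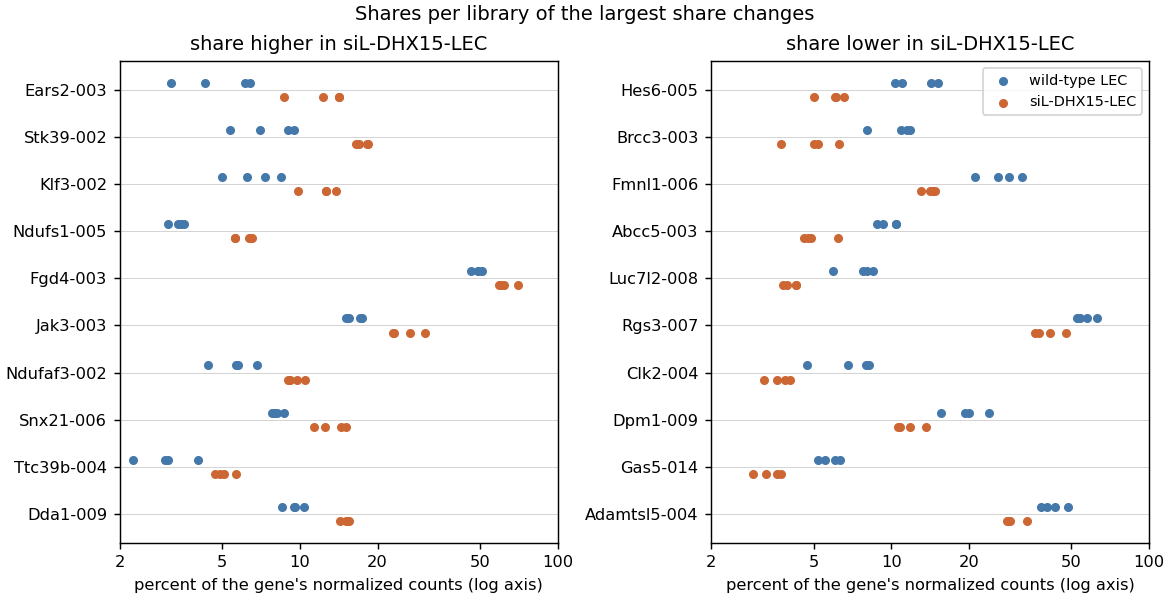
Percent of the gene's normalized counts (horizontal log axis) held by the members with the largest rises and falls of share, with a point for each of the 4 wild-type LEC and 4 siL-DHX15-LEC libraries. Members were chosen to have no overlap of the conditions, and the gap is seen in Dda1-009 at 8.51 to 10.4% against 14.3 to 15.5% and Hes6-005 at 10.4 to 15.2% against 5.01 to 6.56%.

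The silenced gene itself had 3 retained-intron isoforms. The total of Dhx15 was 26824, 27952, 26430 and 28006 normalized counts in wild-type LEC and 8936, 7956, 8930 and 10051 in siL-DHX15-LEC, and fell by 1.61 on the log2 scale (SE 0.0592, limma adjusted p = 3.32e-08). Dhx15-003 had 398, 561, 458 and 447 counts against 287, 272, 334 and 410, which overlapped and did not pass (log2 change -0.52, limma adjusted p = 0.0657). Its share was 1.48, 2.01, 1.73 and 1.59% in wild-type LEC and 3.21, 3.42, 3.73 and 4.08% in siL-DHX15-LEC, a rise of 1.12 in the log2 ratio (limma adjusted p = 0.00292). Dhx15-006 went from 0.595 ± 0.109 to 1.24 ± 0.233% (SD, n = 4 each, limma adjusted p = 0.0195, lost without wild-type replicate 4 or silenced replicate 1). Together the 3 members held 2.41 ± 0.350% of the gene in wild-type LEC and 5.09 ± 0.483% in siL-DHX15-LEC (SD, n = 4 each, limma adjusted p = 0.000699).

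Summed over all members of a gene, the share could be tested in 5095 genes and was larger in 61 and smaller in 114 (3.43%). The median gene held 2.25% of its counts in retained-intron isoforms, and 100 genes at least 50%. The median log2 change was -0.10 and 36.4% of the genes had a positive change. The groups did not overlap in 13.2% of these genes, 188 with a larger and 482 with a smaller share. The genes described next were chosen after their values were seen. Leaving out any library but wild-type replicate 1 or silenced replicate 4 brought the count from 175 to between 75 and 111.

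Of the genes with a smaller sum, 4 are the snoRNA hosts Gas5, Snhg1, Snhg5 and Snhg8. In Gas5 the members held 37.4, 35.4, 41.3 and 38.0% of the gene in wild-type LEC and 24.8, 26.2, 26.5 and 27.1% in siL-DHX15-LEC. The gap between the groups was wider than the spread within either. The log2 ratio fell by 0.79 (SE 0.0722, limma adjusted p = 0.000405), while the gene total did not pass (10982 ± 1184 against 11413 ± 1253 normalized counts, SD, n = 4 each). Of the 18 members of Gas5 tested, 17 had a negative change of share and 3 passed. In Snhg1 the members held 37.8, 35.7, 38.3 and 36.3% against 22.7, 27.2, 26.7 and 27.2% (log2 ratio -0.75, limma adjusted p = 0.000921), also with a gene total that did not pass. In Snhg5 they held 28.7, 28.7, 35.3 and 27.4% against 14.7, 19.6, 20.6 and 23.7% (log2 ratio -0.82, limma adjusted p = 0.026), and the call was lost without any of 4 libraries, with an adjusted p of up to 0.0787 without wild-type replicate 3. In Snhg8 the single member went from 7.65 ± 0.866 to 4.96 ± 0.266% (SD, n = 4 each, limma adjusted p = 0.0174, lost without wild-type replicate 2, 3 or 4). Snhg17 (46.2 ± 1.83 against 48.4 ± 1.30%) and Snhg4 (50.2 ± 0.83 against 52.8 ± 3.75%) did not pass.

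**Figure D5:**
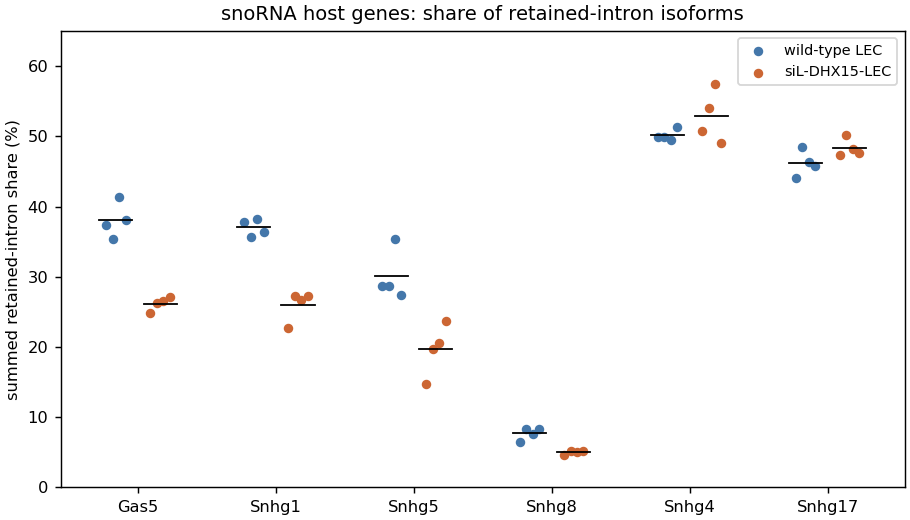
Percent of the gene's normalized counts held by all its retained-intron isoforms (vertical axis) in Gas5 and the Snhg genes, with a point for each of the 4 wild-type LEC and 4 siL-DHX15-LEC libraries and lines for the means. Gas5 (38.0 to 26.1%), Snhg1 (37.0 to 25.9%), Snhg5 and Snhg8 have no overlap of the conditions, while Snhg4 and Snhg17 overlap.

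An annotated snoRNA or Cajal-body RNA gene lay wholly inside an exon of 95 members. Of the 84 tested for share, from 41 genes, 7 were lower and none higher (limma, with 2 higher and 37 lower at an unadjusted p under 0.05). These calls are 8.33% of the 84, against 1.69% of all members and 4.35% of all isoforms tested. The groups did not overlap for 1 higher and 34 lower (41.7%, against 11.1% of all members and 13.5% of all isoforms tested). The median log2 change was -0.29, against -0.12 for the 10223 members without such a gene, of which 71 were higher and 96 lower. Summed over each of the 41 host genes, 11 shares were smaller and 1 larger, with a median of -0.22 against -0.10 over all genes tested. Of all 5095 genes tested, 114 were smaller and 61 larger (3.43%). This grouping was not among the planned features, and the hosts described above can be among the 41 genes. It is therefore no separate support for them. For level, 1 of the 84 members was higher and 2 were lower. Their median level was not compared with that of the other members, although the share of calls rose with level. Reads of a snoRNA or of an unspliced precursor were not separated from those of the member. Members of 1 gene overlap each other and share reads, so these counts describe the genes and were not tested.

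Outside the snoRNA hosts, Luc7l2 fell from 16.2 ± 1.59 to 9.54 ± 0.590% and Abcc5 from 15.4 ± 1.03 to 8.22 ± 0.956% of the gene. Slc39a14, a zinc and manganese importer, fell from 3.93 ± 0.423 to 2.01 ± 0.241%, and Qsox1, an oxidase that forms disulfide bonds, from 3.13 ± 0.168 to 1.79 ± 0.135%. Rgs3 fell from 58.5 ± 4.36 to 41.8 ± 4.93%. Larger sums passed in N4bp2l2, from 46.9 ± 1.52 to 58.9 ± 1.88%, in Dda1, from 9.94 ± 0.750 to 15.6 ± 0.548%, and in Stk39, from 7.87 ± 2.00 to 17.6 ± 0.878%. The widest relative changes among these were in Gabre, a GABA receptor subunit, with 0.957, 1.52, 2.38 and 1.59% in wild-type LEC and 12, 6.23, 6.92 and 9.13% in siL-DHX15-LEC, and in Ttll7, a tubulin polyglutamylase, with 7.89, 3.34, 5.46 and 4.12% against 13.2, 19.1, 13.4 and 13.5%. The sum of Gabre rests on a single member, Gabre-003, with means of 7.90 and 39.8 normalized counts, so few reads lie behind it. Values are means ± SD with n = 4 each where not given by library, and all of these sums passed limma with any 1 library left out.

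The totals of ribosomal protein genes were mostly higher in siL-DHX15-LEC, and their retained-intron isoforms changed in both directions. Of 147 members tested, 11 were higher and 5 lower in level (10.9%, against 3.24% of all members). A smaller share was found for 12 (8.16%, against 1.69% of all members in either direction), and the other 135 did not pass, with a median log2 change of share of -0.25. The members tested had a median level of 166 normalized counts, against 47.0 over all members, and the share of calls rose with level as given above. The gene totals were higher for 72 of 86 genes and lower for 2. Rpl41-006 fell from 2554 to 2118 normalized counts (limma adjusted p = 0.0274) and from 2.11 to 1.49% of a gene whose total rose by 0.24. Rpl27a-005, at 2773 and 2690 counts, did not pass for level, while its share fell from 3.25 to 2.69% (limma adjusted p = 0.02). Rps20-002 and Rps16-003, which are among the most abundant members, rose with their genes instead. Rps20-002 had 41586 to 43634 counts in wild-type LEC and 49852 to 53643 in siL-DHX15-LEC, at 57.7 to 58.4% and 57.0 to 59.0% of the gene. Rps16-003 held 49.5 ± 0.429 and 49.5 ± 0.440% (SD, n = 4 each).

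Genes that act in splicing had members that changed in both directions. Of SR proteins and hnRNPs, 4 members were higher and 4 lower in level of 107 tested (7.48%, against 3.24% of all members), with a median of -0.24. Of spliceosome genes 5 were higher and 5 lower of 153 (6.54%), with a median of -0.18. The median levels of the members tested in these lists were 115 and 73.6 normalized counts, also above the 47.0 of all members. Hnrnpk-020 rose from 1970 ± 142 to 2529 ± 75.3 normalized counts (SD, n = 4 each, limma adjusted p = 0.00758). Srsf1-004 fell from 2639 ± 110 to 2181 ± 143 (SD, n = 4 each, limma adjusted p = 0.0206, lost without any of 4 libraries) at 6.11 and 6.04% of its gene, so the share stayed near its level. Sugp2-003, of a G-patch protein, rose from 265 ± 29.4 to 394 ± 30.7 (SD, n = 4 each, limma adjusted p = 0.0111). Of the kinases and sugar transferases known for detained introns, 2 members, both of Clk3, were higher and 1 lower of 25 (12%). The median log2 change of this list was -0.20, with 6 members positive and 19 negative. For share, 0 were larger and 1 smaller, with a median of -0.21. Clk3-003, of a kinase of SR proteins, rose from 423 ± 35.5 to 600 ± 49.8 (SD, n = 4 each, limma adjusted p = 0.0109) with 7.91 and 7.79% of its gene. Of nonsense-mediated decay and exon junction factors, 2 members were lower and 20 did not pass (9.09% called), with a median of -0.31.

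Among genes of metabolism and stress, some members changed with the gene total and others did not. Of the integrated stress response, serine and one-carbon genes, 4 members were higher and 33 did not pass (10.8% called, against 3.24% of all members), and 31 of 40 gene totals were higher. Gadd45a-004, of a growth arrest gene, had 415, 600, 468 and 396 normalized counts in wild-type LEC and 1228, 907, 805 and 1014 in siL-DHX15-LEC (log2 change 1.07, limma adjusted p = 0.00546), at 12.8 and 12.7% of its gene. Psph-008, of the last enzyme of serine synthesis, rose from 1314 ± 32.2 to 1890 ± 210 (SD, n = 4 each, limma adjusted p = 0.00561) at 6.58 and 6.64%. In glycolysis, 2 members were higher and 1 lower of 45 (6.67%). Pkm-002, of pyruvate kinase, had 3260, 3080, 3308 and 2954 against 2431, 2553, 2764 and 2579 (log2 change -0.29, limma adjusted p = 0.0152), while the total of Pkm rose by 0.21 (limma adjusted p = 0.00523). Its share fell from 0.822 ± 0.0437 to 0.580 ± 0.0295% (SD, n = 4 each, limma adjusted p = 0.00338). The retained-intron isoforms of Aldoa, Gapdh and Uggt1 that were tested did not pass for level or share, although the totals of these genes rose by 0.35, 0.30 and 0.20. Of oxidative phosphorylation subunits 3 members were higher of 89 (3.37%), of mitochondrial ribosomal proteins 3 of 61 (4.92%), and the other members of both lists did not pass.

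The share of members called for level in the remaining lists lay on both sides of the 3.24% of all members. Of the proteasome, none of 66 members passed for level (limma, with 5 at an unadjusted p under 0.05). Of translation factors 1 was higher and 1 lower of 82 (2.44%), of aminoacyl tRNA synthetases 1 was higher of 61 (1.64%), and of N-glycosylation and endoplasmic reticulum entry 4 were higher and 1 lower of 57 (8.77%). Of actin and myosin genes 3 were higher and 5 lower of 61 (13.1%), with a median of -0.25. For share, 1 was larger and 5 were smaller (9.84%, against 1.69% of all members). Zyx-003, of the adhesion protein zyxin, went from 1.42 ± 0.0529 to 1.02 ± 0.0288% of its gene (SD, n = 4 each, limma adjusted p = 0.00824). Of intermediate filament, annexin and S100 genes 1 was higher of 28 (3.57%), and of cell cycle and replication genes 4 were higher and 1 lower of 111 (4.50%). Of chemokine and angiogenesis genes 2 were higher and 1 lower of 13 (23.1%). Cxcl12-004, of a chemokine of cell migration, had 889, 709, 820 and 704 normalized counts in wild-type LEC and 350, 415, 429 and 463 in siL-DHX15-LEC (log2 change -0.91, limma adjusted p = 0.00259), in a gene whose total fell by 0.62.

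The single most abundant member was Ncl-002, of nucleolin, a nucleolar protein of ribosome synthesis. It held 129820, 151500, 134930 and 140270 normalized counts in wild-type LEC and 124640, 105960, 124200 and 147100 in siL-DHX15-LEC, which overlapped and did not pass (limma adjusted p = 0.324). Its share was 78.4, 79.1, 78.3 and 78.4% against 80.4, 80.4, 80.4 and 80.3%, a small rise that passed (log2 ratio 0.16, limma adjusted p = 0.00382). Per kilobase of transcript, Ncl-002 had a level of 45290 and 40845 normalized counts, below Rps16-003 with 73711 and 87797 and Rps20-002 with 72820 and 90023. The 10 most abundant members held 15.9% of all counts of the members.

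The spanned introns were short. The 5651 members with at least 1 spanned intron covered 8285 of them, with a median length of 288 bases (quartiles 127 and 737), against 1347 bases (quartiles 443 and 3510) for the 116932 introns of coding isoforms in the same genes. Of the spanned introns, 97.9% began with GT and ended with AG. Members that span an intron had 27 larger and 63 smaller shares of 3926 (2.29%), with a median log2 change of -0.15. Members that cover only part of one had 43 and 39 of 6337 (1.29%), with a median of -0.11. Of all members 1.69% were called, and of all isoforms tested 4.35%. The median levels of the 2 kinds were 66.2 and 37.8 normalized counts, and the share of calls rose with level. The 46 introns in members with a larger share had a median length of 303.5 bases and 50.9% GC, and the 148 in members with a smaller share 460.5 bases and 46.7% GC, against 301 bases and 50.8% over all tested. Their median donor scores were 7.63 and 8.21, and their median acceptor scores 8.59 and 7.85. Introns of 1 member are not independent, and these differences were not tested.

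By base content, members whose spanned introns had under 40% GC had 5 larger and 13 smaller shares of 632 (2.85%, against 1.69% of all members). From 40 to 50% GC there were 6 and 21 of 1142 (2.36%), from 50 to 60% 7 and 24 of 1583 (1.96%), and at 60% or more 9 and 5 of 563 (2.49%). Introns that begin like those of the minor, U12-type spliceosome were spanned by 51 members. Of the 43 tested, 4 had a smaller share and none a larger one (9.30%, against 1.69% of all members and 4.35% of all isoforms tested, limma, with 0 larger and 9 smaller at an unadjusted p under 0.05), and 11.6% had a positive change, against 36.7% of all members.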

How the data were processed

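RNA from 4 wild-type LEC and 4 siL-DHX15-LEC libraries was sequenced in paired reads of 76 bases. Alignment by the authors used STAR 2.5.2a and the GRCm38 build, RSEM 1.2.28 gave counts for the isoforms in GENCODE M12, and DESeq2 1.18 supplied the size factors. The file as deposited holds the resulting normalized counts, treated here as a signal. RSEM assigns reads that several isoforms share by estimate, and reads of unspliced precursors are not separated from those of mature transcripts that keep an intron. In each library the values were checked and found to be multiples of 1 read's worth (0.794 to 1.70, with a tolerance of 0.1 and 100% of values inside it), and division by it gave the reads used for edgeR 4.0.16 and DESeq2 1.42.0. The percent values of read quality, as deposited, were made by the sequencing center per lane. 

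Levels were tested with limma 3.58.1 under R 4.3.3, two-sided, on log2 of the normalized count plus 1, with a trend of the variance, for isoforms with a mean of at least 10, and shares on the log2 ratio of the isoform to the rest of its gene. P-values were adjusted by Benjamini-Hochberg over all isoforms or genes tested. Fold changes on this scale understate those of low isoforms. Introns of at least 50 bases, positions and annotation came from GENCODE M21 on GRCm38, and donor and acceptor scores from the base frequencies of the spanned introns. The tests were tested on simulated data. Members and the 23 gene lists were chosen with earlier results of these data known. Named members were the 10 largest rises and falls of level and of share (mean of at least 50 and no overlap, and for share at least 5% in a condition), the 5 highest means, up to 4 per list with the smallest p, and those of genes the study names. Gabre-003, Rpl41-006, Rpl27a-005 and the genes given by their summed share were chosen after their values were seen.

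The alternatives tried were pseudocounts of 0.5 and 5, a filter at a mean of 50 or none, no variance trend, TMM or equal totals, edgeR and DESeq2 on reads, diffSplice and diffSpliceDGE, counts per base of transcript, and each library left out. Leaving out Gm42418, or the 10 highest members, changed no direction of the total shares.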

Additional observations from a re-analysis of the deposited data

Results flagged for a closer look

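In 17 of 374 groups of 4 libraries examined, 1 library lay far from the other 3 for its range, and chance flags about 1 in 20 such groups. In wild-type LEC these were Tia1-009 (32.97 normalized counts in replicate 1 against 65.89 to 69.24), Eif4a2-020 (334.8 in replicate 1 against 486.4 to 514.4), the share of Ncl-002 (79.06% in replicate 2 against 78.34 to 78.45), the share of Smg5-002 (2.567% in replicate 2 against 2.796 to 2.829), the share of Mrps24-003 (2.816% in replicate 4 against 3.406 to 3.508) and the summed share of Snhg5 (35.32% in replicate 3 against 27.44 to 28.68).

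In siL-DHX15-LEC they were Afdn-016 (41.63 normalized counts in replicate 4 against 23.77 to 26.5), Anapc15-005 (743.7 in replicate 1 against 833.8 to 839.1), Anapc7-006 (115.9 in replicate 3 against 79.8 to 81.26), the share of Asic3-003 (32.6% in replicate 2 against 20.8 to 22.81), that of Adamtsl5-004 (33.66% in replicate 4 against 28.22 to 28.85), that of Rps16-003 (48.85% in replicate 4 against 49.63 to 49.77), that of Pfkp-004 (3.729% in replicate 4 against 3.321 to 3.38) and that of Dpm1-008 (4.679% in replicate 2 against 2.422 to 2.76). Of the summed shares they were Snhg1 (22.73% in replicate 1 against 26.68 to 27.21), Ttll7 (19.08% in replicate 2 against 13.19 to 13.45) and Qsox1 (1.991% in replicate 4 against 1.698 to 1.738).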

How the results depend on the processing

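The 337 level calls became 553 with DESeq2 (267 higher, 286 lower), 0 at an adjusted p of 0.001 (0 also with edgeR, 156 with DESeq2) and 146 to 359 with 1 library left out. The 175 share calls became 70 without a variance trend, 295 with diffSplice, 39 with diffSpliceDGE, 0 at 0.001 (limma, with 1419 at an unadjusted p under 0.05) and 69 to 133 with 1 library left out. The 175 genes with a changed summed share became 28 without a variance trend, 9 at 0.001 and 75 to 204 with 1 library left out. The share of retained-intron isoforms in all counts differed by -0.0909 to -0.0473 percentage points with 1 library left out, its log2 ratio to nonsense-mediated-decay isoforms by -0.127 to -0.0903, and that to processed transcripts by -0.108 to -0.0847, or by -0.0686 per base of transcript. The change of share of Stk39-002 reversed with diffSplice (-0.96). Of the isoforms named, 28 results for level and 27 for share lost the call with some library left out. The 84 results of each kind include those that had not passed and so had no call to lose. Of the 16 summed shares, which had all passed, 2 lost the call. The causes were not tested. The lower depth of silenced replicate 1 limits members with few reads. No paired analysis was possible because the labels give no replicate numbers that the conditions share.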
